A study of Mus musculus with 135 samples.

Results

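The genes described here encode proteins of the cardiac sarcomere, the contractile unit of heart muscle, together with Tnni3k, a kinase gene of cardiac muscle. The 10 genes were Myh6, Myh7, Mybpc3, Myl2, Myl3, Ttn, Tnnt2, Tnni3, Actc1 and Tnni3k. A peak of H3K4me3 (histone H3 trimethylated at lysine 4) was assigned to a gene when it lay within 1 kb of a transcription start site in the GENCODE M21 basic annotation. By this rule 7 of the 10 genes had a promoter peak in at least 1 of 4 cell types, with 13 peaks among the 187253 listed. Cardiomyocytes held 5 of them, 1 each for Mybpc3, Myl2, Myl3, Tnni3 and Ttn, among 12920 promoter peaks and 23809 peaks in all. Hepatocytes had a promoter peak for 2 of the genes, embryonic stem cells for 3 and male germ cells for 2. Myh6, Myh7 and Tnni3k had no listed promoter peak in any of the 4 cell types.

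H3K4me3 was profiled by chromatin immunoprecipitation and sequencing of MNase-digested chromatin, in a series made for mapping the loci that set the mark. Cardiomyocytes and hepatocytes were isolated from females at 8 weeks of age, with 3 libraries each of C57BL/6J (B6), DBA/2J (D2), BXD75 and BXD87. B6 and D2 are inbred founder strains, and each BXD line is an inbred mosaic of both founder genomes. No group was treated. Embryonic stem cells of the same 4 strains were derived from embryos at day 3.5, with 3 lines of each founder and 5 of each BXD strain. Germ cells were a crude isolate from males at 14 days after birth, with 3 libraries of B6, 3 of D2, 4 of the (B6xD2)F1 hybrid and 69 of 61 BXD strains. Germ cells differed from the other cell types in library kit, NEXTflex against KAPA, and their founder and F1 libraries in antibody lot, 2557645 against 2746331. Whether libraries of a group stem from different animals is not given, so the p-values measure the spread between these libraries, which may be technical.

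H3K4me3 marks nucleosomes around the start sites of active genes, and in terminally differentiated cells it often spreads into the body of highly transcribed lineage genes. In the sarcomere, myosin heavy and light chains form the thick filament, actin with tropomyosin and the troponins forms the thin filament, and titin spans from the Z-disc to the M-band. Adult mouse ventricle is known to use Myh6 as its main myosin heavy chain, while Myh7 predominates before birth. Tnni3k encodes a kinase that binds cardiac troponin I, and its transcript is known to be low in hearts of D2 mice. Many cardiac promoters carry binding motifs of MEF2 factors, of serum response factor (the CArG box) or of TEAD factors (the MCAT motif).

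The sequences below are the bases just upstream of the starts of the 5 genes with a cardiomyocyte promoter peak, shown because the peaks cover them (that of Myl2 in most of its length), and of Actc1 and Tnni3k, shown for contrast because no cardiomyocyte peak was listed at their starts. They are RefSeq promoter sequences on GRCm38.p6, except that of Myl2, which was read from the same genome at its GENCODE start. Each runs 5′ to 3′ on the strand of the gene and leaves out annotated exon bases. Capitals mark MEF2 motifs, CArG boxes and MCAT motifs (CATTCC, or its reverse complement GGAATG).
Ttn: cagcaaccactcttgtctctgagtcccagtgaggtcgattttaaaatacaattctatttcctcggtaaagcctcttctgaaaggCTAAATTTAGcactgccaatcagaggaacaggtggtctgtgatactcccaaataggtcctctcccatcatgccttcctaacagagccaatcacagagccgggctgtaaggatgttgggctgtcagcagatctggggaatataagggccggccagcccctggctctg
Mybpc3: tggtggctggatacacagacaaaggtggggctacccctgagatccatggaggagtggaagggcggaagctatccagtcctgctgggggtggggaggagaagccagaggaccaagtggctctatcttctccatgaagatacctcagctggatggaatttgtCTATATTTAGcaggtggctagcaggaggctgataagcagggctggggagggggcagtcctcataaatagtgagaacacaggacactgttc
Myl2: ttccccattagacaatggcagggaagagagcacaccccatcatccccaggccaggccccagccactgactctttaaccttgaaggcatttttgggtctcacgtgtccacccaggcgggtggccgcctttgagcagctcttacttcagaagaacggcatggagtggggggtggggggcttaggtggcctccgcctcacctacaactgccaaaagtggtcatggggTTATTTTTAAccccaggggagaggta
Myl3: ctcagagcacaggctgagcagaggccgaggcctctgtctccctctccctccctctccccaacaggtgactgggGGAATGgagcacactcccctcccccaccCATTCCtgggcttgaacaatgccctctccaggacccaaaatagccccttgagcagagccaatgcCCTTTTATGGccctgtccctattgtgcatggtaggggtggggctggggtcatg
Tnni3: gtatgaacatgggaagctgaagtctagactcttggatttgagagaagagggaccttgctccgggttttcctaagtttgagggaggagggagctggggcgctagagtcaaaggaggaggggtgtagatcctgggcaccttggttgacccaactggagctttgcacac
Actc1: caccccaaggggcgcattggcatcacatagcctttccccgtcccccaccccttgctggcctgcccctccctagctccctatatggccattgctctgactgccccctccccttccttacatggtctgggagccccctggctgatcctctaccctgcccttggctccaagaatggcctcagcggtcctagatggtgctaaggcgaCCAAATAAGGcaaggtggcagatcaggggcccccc
Tnni3k: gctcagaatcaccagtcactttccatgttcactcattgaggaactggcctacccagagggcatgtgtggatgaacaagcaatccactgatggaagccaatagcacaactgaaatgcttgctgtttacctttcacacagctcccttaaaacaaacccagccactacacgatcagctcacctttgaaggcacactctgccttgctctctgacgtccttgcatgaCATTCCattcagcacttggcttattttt

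The windows lie at chr2:76982548-76982797 on the minus strand for Ttn, chr2:91117894-91118143 on the plus strand for Mybpc3, chr5:122100701-122100950 on the plus strand for Myl2 and chr9:110763428-110763645 on the plus strand for Myl3. They lie at chr7:4522529-4522694 for Tnni3, chr2:114052888-114053125 for Actc1 and chr3:155055408-155055657 for Tnni3k, all on the minus strand. In a search of both strands of the 250 bases upstream, a MEF2 motif stood 166 to 157 bases before the Ttn start, 90 to 81 before that of Mybpc3 and 26 to 17 before that of Myl2. The MEF2 motif was found in 2.92% of 32851 RefSeq promoter windows of that length. A CArG box stood 85 to 76 bases before the RefSeq start of Myl3 and 47 to 38 before that of Actc1, against 1.47% of all windows. CATTCC occurred at 2 places before Myl3 and at 1 place, 28 to 23 bases before the start, in Tnni3k, and 12.6% of all windows held it. Of the motifs searched, which also included TATAAA (12.4% of windows) and AGATAA (9.99%), none was found in the Tnni3 window. These windows held fewer CpG pairs than the median window, with 4 for Ttn and Actc1, 1 for Mybpc3 and Myl3, 5 for Myl2, 3 for Tnni3 and 2 for Tnni3k over the full 250 bases, against a median of 6 and quartiles of 2 and 16 over all windows.

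In cardiomyocytes the 5 promoter peaks were 5707 to 13799 bases wide, against a median of 4133 bases over all cardiomyocyte promoter peaks (coordinates on mm10). The Myl3 peak (chr9:110757162-110770961), at the gene of the ventricular essential light chain, was 13799 bases wide, began 6484 bases upstream of the start and overlapped 11 annotated exons. The Mybpc3 peak (chr2:91114564-91127955), at the gene of cardiac myosin-binding protein C, was 13391 bases wide and ran 9811 bases into the gene over 22 exons. These 2 widths stood at the 93.8th and 93.4th percentile of the cardiomyocyte promoter peaks.

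The Tnni3 peak (chr7:4516797-4524690; 7893 bases), at the gene of cardiac troponin I, covered 8 exons and also lay within 1 kb of a start of Tnnt1, the slow skeletal troponin T gene, so its reads cannot be assigned to one gene. The Myl2 peak (chr5:122100749-122108186; 7437 bases), at the gene of the ventricular regulatory light chain, began only 202 bases before the start and ran 7235 bases into the gene. The Ttn peak (chr2:76979610-76985317; 5707 bases) was the narrowest of the 5, at the 69.3th percentile, and reached 2770 bases upstream of the first start and 2937 bases into the gene. In the deposited names the peaks of Mybpc3, Myl3 and Tnni3 were found on both strain genomes, and those of Myl2 and Ttn on the reference genome alone.

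**Figure D1:**
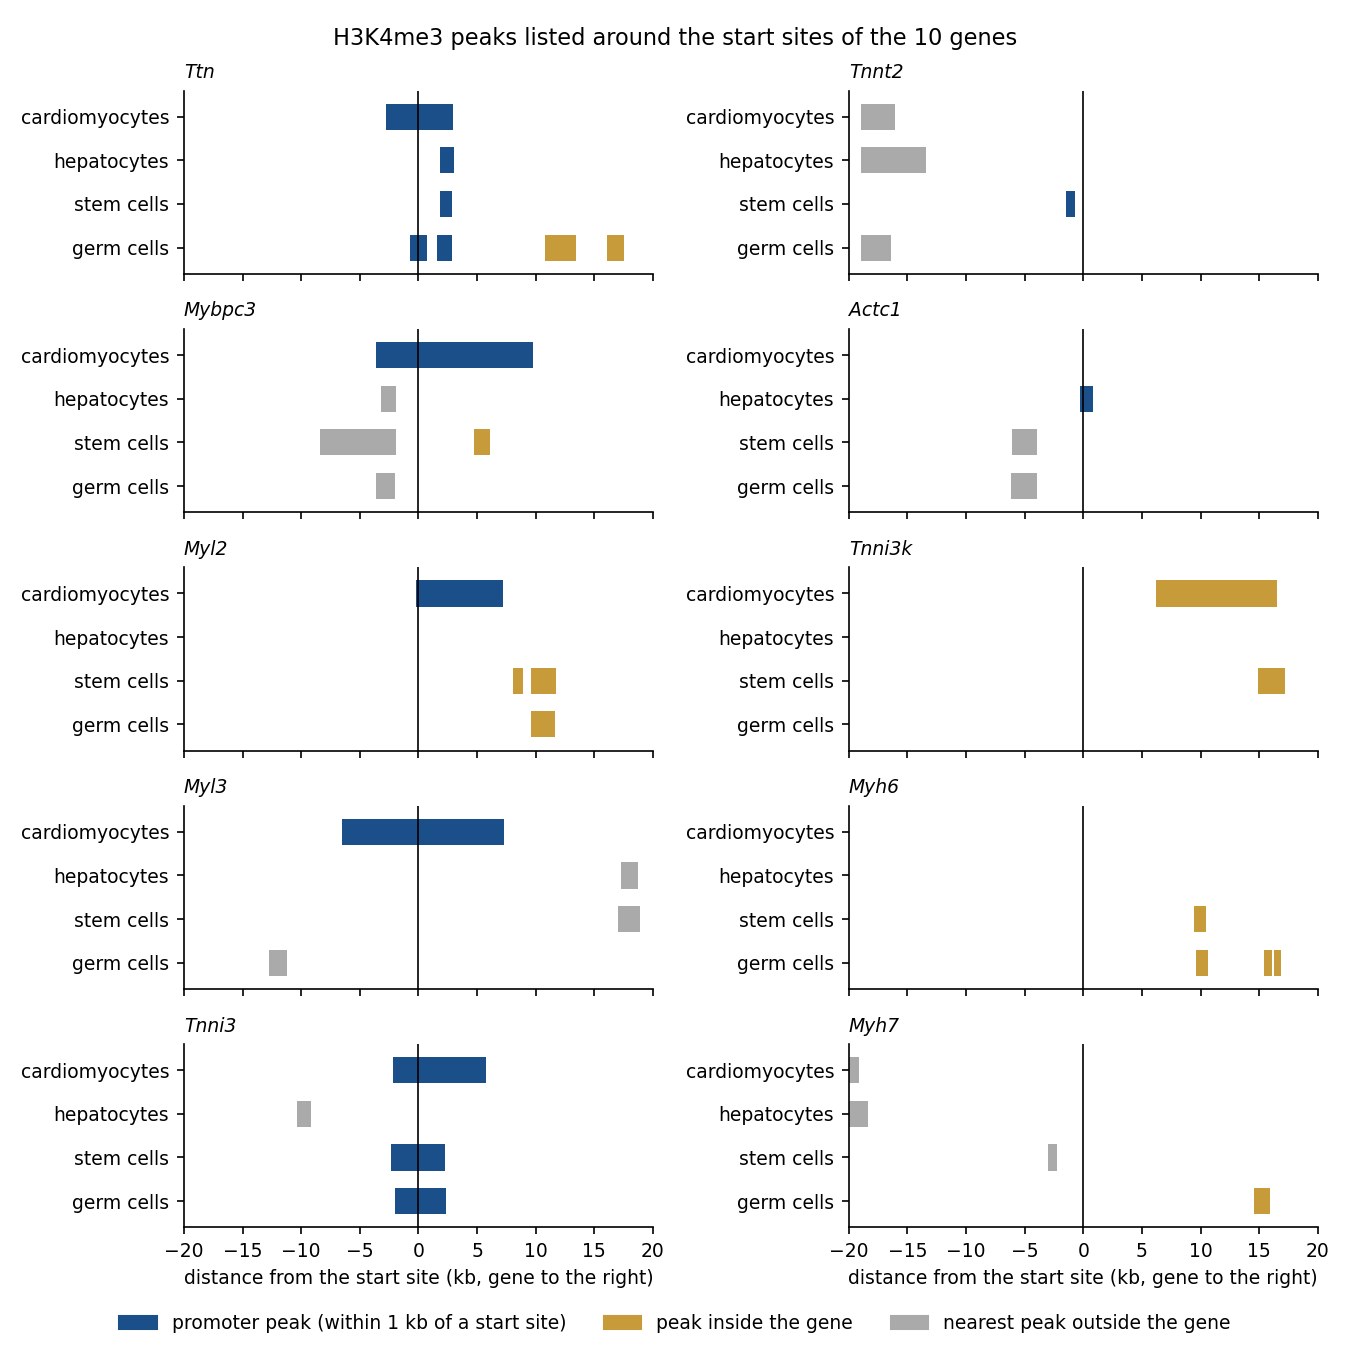
Listed peaks near the start site of each of the 10 genes, by cell type. The horizontal axis is the distance from the start in kb, positive into the gene, and each bar spans 1 peak: blue for promoter peaks, gold for peaks inside the gene, and grey for the nearest peak outside it where no promoter peak was listed. The cardiomyocyte peaks of Mybpc3 and Myl3 are the longest bars over a start, and no bar crosses the starts of Myh6, Myh7, Tnnt2 or Tnni3k.

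Per kb of peak, the mean level over the 12 cardiomyocyte libraries was 14 CPM (read counts scaled to a common library total, with TMM factors) for Tnni3, the 84.5th percentile of promoter peaks, which had a median of 10.8 CPM per kb. The other 4 peaks lay below that median, at 9.80 CPM per kb for Mybpc3, 8.86 for Myl3, 8.27 for Myl2 and 8.06 for Ttn. In CPM over the whole peak, not scaled by width, the order was other, with a median of 48.1 CPM over promoter peaks. Mybpc3 stood at the 91.7th percentile, Myl3 at the 90.2th, Tnni3 at the 87.6th, Myl2 at the 64.5th and Ttn at the 47.3th. The 5 peaks were poorer in CpG than most, with 1.17 (Ttn) to 1.99 (Tnni3) CpG pairs per 100 bases against a median of 2.68 over the 12920 promoter peaks.

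For Myh6 and Myh7, neighbours on chromosome 14 that encode the alpha and beta cardiac myosin heavy chains, no cardiomyocyte peak was listed in the 85735 bases that hold both starts. Tnnt2, the cardiac troponin T gene, lay 16053 bases from the nearest listed peak, and Actc1, the cardiac alpha-actin gene, 72028 bases. These 4 genes and Tnni3k are all in intervals between listed peaks where the running peak numbers skip 1 number, or 2 for Actc1. Such a skip fell in the interval of 29.3% of the 8621 protein-coding genes without a cardiomyocyte promoter peak, and peaks behind the skipped numbers were not analysed here. The 5 genes are therefore described as without a listed peak, which is no measurement of a lack of the mark.

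The libraries differed in depth. Reads in peaks came to 6839220 to 8338075 per library in B6 cardiomyocytes, 2618483 to 4104501 in D2, 7149901 to 7650966 in BXD75 and 10482370 to 12775606 in BXD87. Of 10 cardiomyocyte marker genes fixed as a list (without any of the 10 genes described here), 9 had a promoter peak and Nppa had no listed one. Their summed level was 988 to 1110 CPM in B6, 765 to 849 in D2, 806 to 1020 in BXD75 and 1230 to 1420 in BXD87. Markers of other cells of the heart were marked too, with 5 of 8 fibroblast genes at 231 to 269 CPM in B6 and 243 to 281 in D2, 4 of 7 endothelial genes at 359 to 378 and 350 to 360, and 4 of 6 smooth muscle and pericyte genes at 125 to 154 and 161 to 180. Of the markers of leukocytes, hepatocytes and germ cells 1 gene each had a promoter peak: Cd68, Apoa1 and Dazl. Their means were 61.7, 11.3 and 13.2 CPM in B6 and 52.7, 14.7 and 15.5 in D2. Ptprc, Alb and Ddx4 were among those with no listed one. Pluripotency markers, 2 of 5 with a peak, summed to 74.6 to 91.2 CPM in B6 and 70.9 to 81.3 in D2. Atrial markers, 3 of 6 with a peak, summed to 362 to 375 and 342 to 343 CPM. Fewer cells of a type and less mark per cell cannot be told apart in these bulk samples.

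Between the founders, 4 of the 5 cardiomyocyte promoter peaks were higher in B6 than in D2, by 1.53 to 2.1 times, at an adjusted p under 0.05 over all peaks (edgeR quasi-likelihood test, Benjamini-Hochberg). Over all promoter peaks 5.43% were called higher in B6 and 8.51% were called in either direction. The libraries of B6 and D2 did not overlap for the same 4 peaks, and B6 lay above D2 without overlap at 14.4% of all promoter peaks and below it at 20.4%. Among promoter peaks found on both genomes, as those of Myl3 and Tnni3 were, 6.61% were called higher in B6, and among those found on the reference alone, as Ttn and Myl2 were, 3.17%. The median log2 differences of these groups were -0.04 and -0.05. A peak found on the reference alone may be listed because it was high in B6, and whether this holds for Ttn and Myl2 was not tested. Called lower in B6 were 3.07% of all promoter peaks and none of the 5.

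At Ttn, the gene of titin, the giant elastic protein of the sarcomere, the promoter peak held 46.1, 35 and 57.5 CPM in the 3 B6 libraries. The D2 libraries held 23.9, 18.9 and 23.4 CPM, all below the lowest B6 library. BXD75 libraries held 36.1, 52.3 and 42.9 CPM and BXD87 libraries 73.3, 77.9 and 64.9 CPM, so that every BXD87 library stood above every library of the other strains. The B6 mean of 46.2 ± 11.2 (SD, n = 3) exceeded the D2 mean of 22.1 ± 2.81 (SD, n = 3) by 1.07 on the log2 scale (SE 0.19, adjusted p = 0.00474, edgeR). This was the widest founder difference among the 5 peaks.

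Myl2 encodes the regulatory light chain that is phosphorylated to tune contraction. Its peak held 58.9, 88.4 and 76.3 CPM in B6 and 34.5, 52.3 and 43.5 CPM in D2. The lowest B6 library was above the highest D2 library, and BXD75 (64.2, 59.5 and 46.8 CPM) overlapped both. The difference of 74.6 ± 14.8 and 43.4 ± 8.87 (SD, n = 3 each) was 0.78 on the log2 scale (SE 0.18, adjusted p = 0.0204, edgeR). BXD87, at 66.1, 76.8 and 70.8 CPM, lay within the range of B6.

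Myl3 showed 133, 158 and 126 CPM in B6 and 78.7, 87.1 and 94.1 CPM in D2. BXD75 (129, 112 and 125 CPM) and BXD87 (127, 152 and 147 CPM) all lay above the D2 libraries. The founder difference of 139 ± 16.6 against 86.6 ± 7.74 (SD, n = 3 each) was 0.68 on the log2 scale (SE 0.11, adjusted p = 0.00231, edgeR), with the smallest error of the 5.

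Tnni3, which encodes the inhibitory subunit of the troponin complex, had 113, 131 and 109 CPM in B6, 70.7, 70.4 and 92.2 CPM in D2, 128, 119 and 103 CPM in BXD75 and 125, 141 and 123 CPM in BXD87. Again the D2 libraries were the 3 lowest of the 12. The founder means of 118 ± 11.5 and 77.8 ± 12.5 (SD, n = 3 each) differed by 0.61 on the log2 scale (SE 0.13, adjusted p = 0.0118, edgeR).

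Mybpc3, whose protein ties myosin to the thick filament backbone and slows cross-bridge cycling, was the exception. Its peak held 127, 185 and 121 CPM in B6 and 116, 123 and 109 CPM in D2, and the founders overlapped. The means of 144 ± 35.5 and 116 ± 7.26 (SD, n = 3 each) differed by 0.31 on the log2 scale (SE 0.17, adjusted p = 0.258, edgeR). BXD75 (148, 103 and 119 CPM) and BXD87 (122, 158 and 141 CPM) overlapped both founders.

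**Figure D2:**
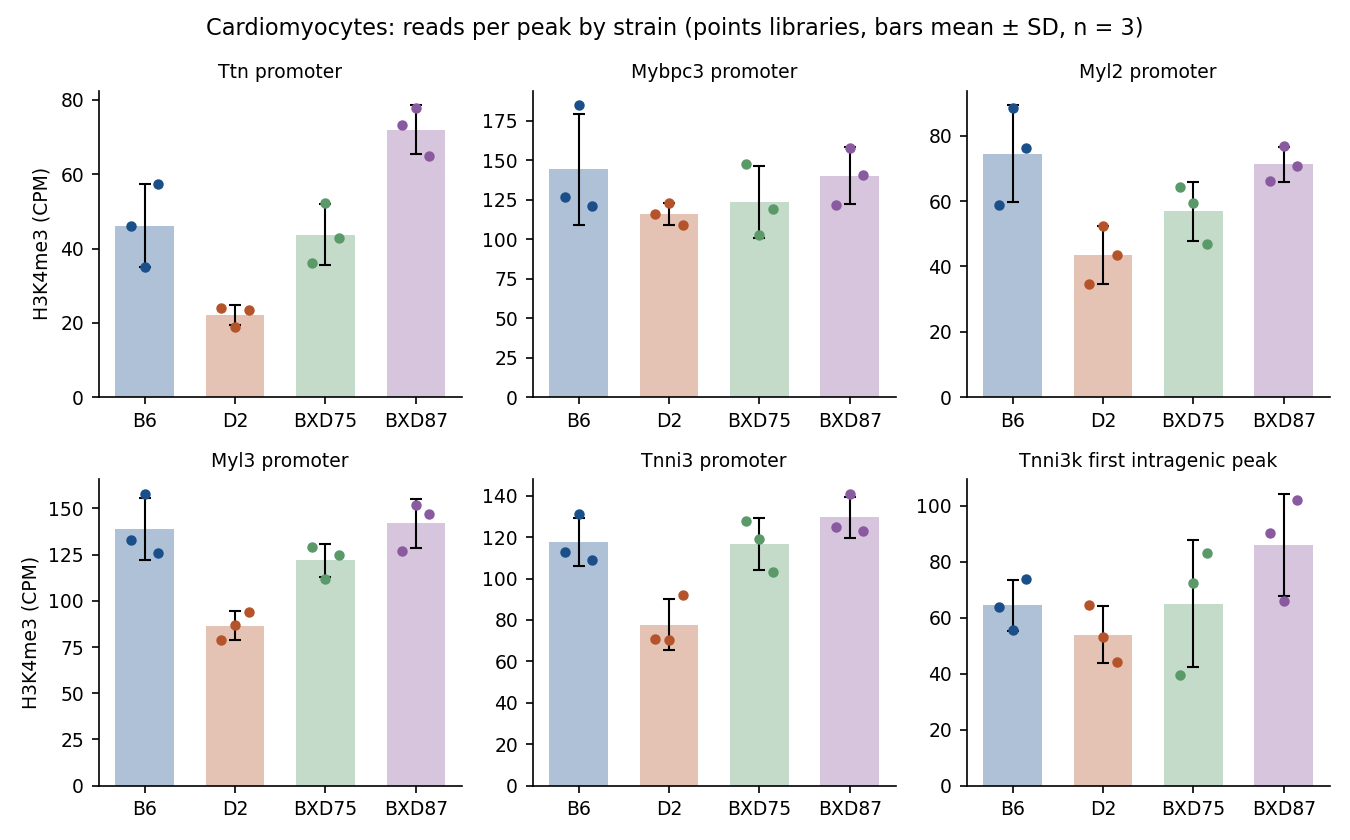
H3K4me3 level (CPM) in each cardiomyocyte library at the promoter peaks of Ttn, Myl2, Myl3, Tnni3 and Mybpc3 and at the Tnni3k peak 6218 bases into the gene, by strain. Points are libraries and bars are means of 3. The D2 libraries of Ttn lie between 18.9 and 23.9 CPM, below every other library, while at Mybpc3 and Tnni3k the founders overlap.

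D2 had the lowest mean of the 4 strains at 5 of 5 peaks, while it had the lowest mean at 35.6% of all promoter peaks and the highest at 42.0%. BXD87 had the highest mean at 3 of the 5 and B6 at the other 2. Neighbours in this order often did not separate: for Myl3, Tnni3 and Mybpc3 the libraries of B6, BXD75 and BXD87 overlapped one another. In the test of any difference among the 4 strains the same 4 peaks passed, with adjusted p = 0.000437 for Ttn, 0.00312 for Myl3, 0.00631 for Tnni3 and 0.0214 for Myl2 (edgeR), and Mybpc3 did not (0.372). In that test 26.0% of all promoter peaks passed. Myl2 was lost there without D2 replicate 1 (0.0776), D2 replicate 3 (0.0747) or BXD87 replicate 3 (0.053), and Tnni3 without D2 replicate 2 (0.0572).

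The 2 recombinant inbred lines, whose genomes mix both founders, were separated less. None of the 5 promoter peaks was called between BXD75 and BXD87, where 0.433% of all promoter peaks were, and 126 of 23809 peaks were called in all (4359 at an unadjusted p under 0.05). All 5 estimates were lower in BXD75, from -0.72 at Ttn (SE 0.17, adjusted p = 0.0959, edgeR; 43.8 ± 8.13 against 72.0 ± 6.58 CPM, SD, n = 3 each) to -0.15 at Tnni3 (SE 0.12, adjusted p = 0.463). Ttn was called in this contrast by DESeq2 (adjusted p = 0.0172) and in the edgeR fits without B6 replicate 2 (0.0428) or without BXD75 replicate 2 (0.0379). The libraries of the 2 lines did not overlap at Ttn and Myl2 and overlapped at Myl3, Tnni3 and Mybpc3, and BXD87 lay above BXD75 without overlap at 7.79% of all promoter peaks.

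The marker sums given above followed these differences only in part. The cardiomyocyte and atrial markers and Cd68 were lower in all 3 D2 libraries than in all 3 B6 libraries. The smooth muscle markers, Apoa1 and Dazl were higher, and the D2 libraries were also the shallowest. Fibroblast, endothelial and pluripotency sums overlapped between the founders. The cardiomyocyte sum of BXD75 (806 to 1020 CPM) overlapped that of D2 (765 to 849 CPM). The part of the cell mixture in the founder difference was not tested. With all libraries thinned to the total of the shallowest, an alternative chosen after the data were seen, the same number of the 5 peaks, 4, was called. Leaving out single libraries left 2 to 4 of the 5 called. Ttn and Myl3 were called in every such fit, Myl2 was not called without B6 replicate 3 (adjusted p = 0.0726), D2 replicate 1 (0.091) or D2 replicate 3 (0.0685), and Tnni3 was not called without D2 replicate 1 (0.0672) or D2 replicate 2 (0.0866).

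Tnni3k had no listed promoter peak, but 4 cardiomyocyte peaks lay inside the gene on chromosome 3, all found on the reference genome alone. The strongest (chr3:155038895-155049189; 10294 bases, no exon) began 6218 bases downstream of the first start. It held 63.8, 55.7 and 74.0 CPM in B6, 64.6, 53.2 and 44.2 CPM in D2, 39.5, 72.6 and 83.1 CPM in BXD75 and 90.3, 66.2 and 102 CPM in BXD87. The founders overlapped, while every D2 library lay below every BXD87 library. The founder difference was 0.25 on the log2 scale (SE 0.24, adjusted p = 0.546, edgeR). None of the 4 peaks was called between the founders by edgeR, against 6.51% of all cardiomyocyte peaks, and the estimates were 0.25 to 0.36 with an unadjusted p of at least 0.15.

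A peak 226890 bases into Tnni3k (chr3:154825283-154828517, over 1 exon) separated the BXD lines more than the founders. It held 15.1, 12.5 and 17.4 CPM in B6, 13.9, 10.5 and 10.6 in D2, 7.44, 9.52 and 12.2 in BXD75 and 19.5, 16.7 and 25 in BXD87. Every BXD87 library lay above every BXD75 library. The line difference was -1.06 on the log2 scale (BXD75 minus BXD87, SE 0.23, adjusted p = 0.0564, edgeR; 0.00162 by DESeq2), and the test of any strain difference passed (adjusted p = 0.0183), against 22.6% of all peaks. A peak 174884 bases into the gene (chr3:154878667-154880523), with 4.82, 5.11 and 6.50 CPM in BXD75 and 8.64, 8.82 and 11.8 in BXD87, had the same order (-0.83, SE 0.20, adjusted p = 0.103; any strain 0.0362). Both any-strain calls were lost with thinned libraries (adjusted p = 0.0591 and 0.224), and the second was lost without any 1 of 7 libraries: B6 replicate 1, each D2 replicate, BXD75 replicate 2, and BXD87 replicates 1 and 3 (highest adjusted p = 0.0983). The first was also lost when D2 replicate 2, BXD87 replicate 1 or BXD87 replicate 3 was left out (highest adjusted p = 0.0707). The line difference passed at the first of these peaks without B6 replicate 2 (0.0428), and at the second with DESeq2 (0.0443). For the strongest peak the any-strain test, which did not pass (adjusted p = 0.176), passed without BXD75 replicate 1 (0.0168). The genes next to Tnni3k, fixed as a list of 7, had 3 promoter peaks for 4 of them (Fpgt, Lrriq3, Lhx8 and Negr1). None of the 3 was called in either contrast, and their median was -0.12 on the log2 scale between the founders and 0.46 for BXD75 minus BXD87, opposite in sign to the line difference at the Tnni3k peaks.

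Inside Ttn, 3 further cardiomyocyte peaks were listed, all found on the reference genome alone. One (chr2:76804647-76808380), 174167 bases downstream of the first start and over 2 exons, held 18, 20 and 29.4 CPM in B6, 13.9, 13.4 and 12.9 in D2, 16.8, 26.0 and 19.1 in BXD75 and 45.8, 51.2 and 44.4 in BXD87. As at the Ttn promoter, D2 was lowest and BXD87 stood apart above the other strains. BXD75 was lower than BXD87 by 1.19 on the log2 scale (value -1.19, SE 0.20, adjusted p = 0.0126, edgeR), where 0.529% of all peaks were called. The founder difference of 0.75 did not pass (SE 0.22, adjusted p = 0.0583), but did with DESeq2 (0.0204), with B6 and D2 alone (0.0358) and without B6 replicate 2 (0.0353), BXD75 replicate 1 (0.0213) or BXD75 replicate 2 (0.0342). The line call was lost with thinned libraries (0.0637), in a fit of the 2 lines alone (0.0767) and when BXD75 replicate 3 or any 1 BXD87 library was left out (highest adjusted p = 0.077). Just upstream of the Myl2 peak a second broad peak (chr5:122091890-122099538) covered the starts that RefSeq gives for Myl2. It was found on the reference genome alone and may be listed because it was high in B6, so its direction is no separate result. It held 40.9, 48.4 and 65.5 CPM in B6 and 30.5, 32.5 and 30.6 in D2 (0.72 on the log2 scale, SE 0.17, adjusted p = 0.0262, edgeR). That call was lost without B6 replicate 3 (adjusted p = 0.125) or any 1 D2 library (highest 0.098).

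**Figure D3:**
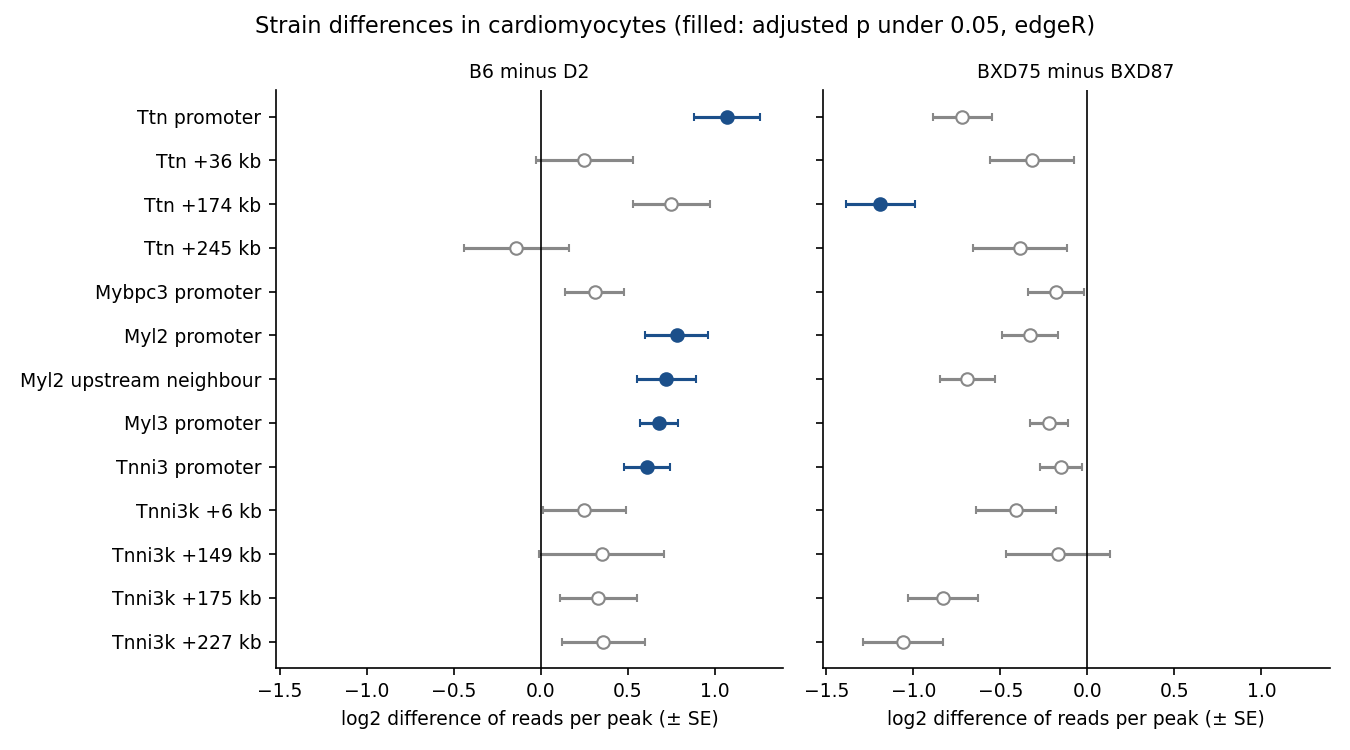
Log2 difference with its standard error at each cardiomyocyte peak of these genes, for B6 minus D2 (left) and BXD75 minus BXD87 (right), on 1 axis range. Row labels give the distance of a peak from the first start in kb, and filled points passed an adjusted p of 0.05. The promoter peaks of Ttn, Myl2, Myl3 and Tnni3 and the neighbour upstream of Myl2 are filled on the left, and the Ttn peak 174167 bases into the gene is filled on the right.

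The other sarcomere genes were read from lists. Of 16 thick filament genes 11 had a promoter peak, and 7 of the 11 peaks were called higher in B6 and none lower, where 5.43% of all promoter peaks were called higher and 3.07% lower. They had a median log2 difference of 0.69 against -0.04 over all promoter peaks. Apart from the genes already described, 4 of 7 were called. The largest was Mylk3, the cardiac kinase of the regulatory light chain, with 126 ± 12.8 CPM in B6 and 32.6 ± 2.79 in D2 (SD, n = 3 each; 1.95 on the log2 scale, SE 0.13, adjusted p = 4.51e-07, edgeR). The others were the M-band proteins Myom1 (0.91, adjusted p = 0.00907) and Myom2 (0.86, 0.000128) and Smyd1, a muscle methyltransferase needed for myosin assembly (0.69, 0.0426).

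In the thin filament list 9 of 13 genes had a promoter peak, and 2 of the 9 were called (5.43% of all promoter peaks were called higher in B6), both higher in B6: Tnni3 and Lmod2, a leiomodin that nucleates actin at the filament's pointed end (0.82 on the log2 scale, adjusted p = 0.000673, edgeR). DESeq2, which called more peaks in all than edgeR did, called 6 of the 9. The median of the 9 was 0.28. Tpm1, the main cardiac tropomyosin gene, had 241 ± 19.5 CPM in B6 and 204 ± 9.46 in D2 (adjusted p = 0.107), and Tnnc1, the troponin C gene of heart and slow muscle, 161 ± 6.88 and 135 ± 4.84 (adjusted p = 0.0654; SD, n = 3 each).

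Among Z-disc and cytoskeletal genes 15 of 21 had a promoter peak, all 15 estimates were above 0, and 8 were called, all higher in B6 as were 5.43% of all promoter peaks, with a median of 0.49. The largest were Synpo2l (0.69), Csrp3, the muscle LIM protein (0.67), Ldb3, which binds alpha-actinin (0.66), and Ankrd1, a stretch-responsive repeat protein (0.64), with adjusted p between 0.000214 and 0.0159 (edgeR). Des, the desmin gene, was nearly level at 98.2 ± 10.5 and 93.7 ± 5.59 CPM. Leaving out single libraries gave 4 to 7 called peaks in the thick filament list (lowest without D2 replicate 3), 1 to 6 in the thin filament list (1 without D2 replicate 1 or 2, 4 without B6 replicate 2 or BXD75 replicate 2, 6 without BXD75 replicate 1) and 3 to 11 in the Z-disc list (3 without D2 replicate 2, 5 without B6 replicate 3). None of the peaks called in these fits was lower in B6.

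Of 11 transcription factors known to regulate sarcomere genes, all with a promoter peak, 6 were called higher in B6 and none lower, beside 5.43% and 3.07% of all promoter peaks, with a median of 0.44. Nkx2-5 (0.77), Myocd, a coactivator of serum response factor (0.69), Tbx5 (0.63) and Mef2d (0.61) had the largest differences, while Gata4 (331 ± 19.1 against 317 ± 22.9 CPM) and Srf (125 ± 8.43 against 127 ± 16.0) were not called. The 6 fell to 3 without B6 replicate 1 or 3 or D2 replicate 2 or 3. Fetal and skeletal isoform genes had 6 promoter peaks for 16 genes, and the 1 called was the Tnni3 peak that also lies at Tnnt1. The other 5 ranged from -0.24 to 0.17. These lists were picked with earlier results of the data known, and their counts are a description.

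Between BXD75 and BXD87 the same lists leaned to lower values in BXD75, with medians of -0.35 (thick filament), -0.15 (thin filament), -0.36 (Z-disc) and -0.27 (regulators) against 0.07 over all promoter peaks. Only Myom2 (-0.56, adjusted p = 0.0182, edgeR) and Lmod2 (-0.56, 0.0395) were called among these 4 lists, where 0.433% of all promoter peaks were called. The calls of Myom2 and Lmod2 were lost with thinned libraries, with a replicate block and in fits of the 2 lines alone. DESeq2, which called more peaks in all than edgeR did, called 6 of the Z-disc peaks, all lower in BXD75. The thick filament count ran from 0 to 4 without single libraries (4 without BXD75 replicate 2) and the thin filament count from 0 to 1. The Z-disc count reached 5 without BXD75 replicate 2.

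**Figure D4:**
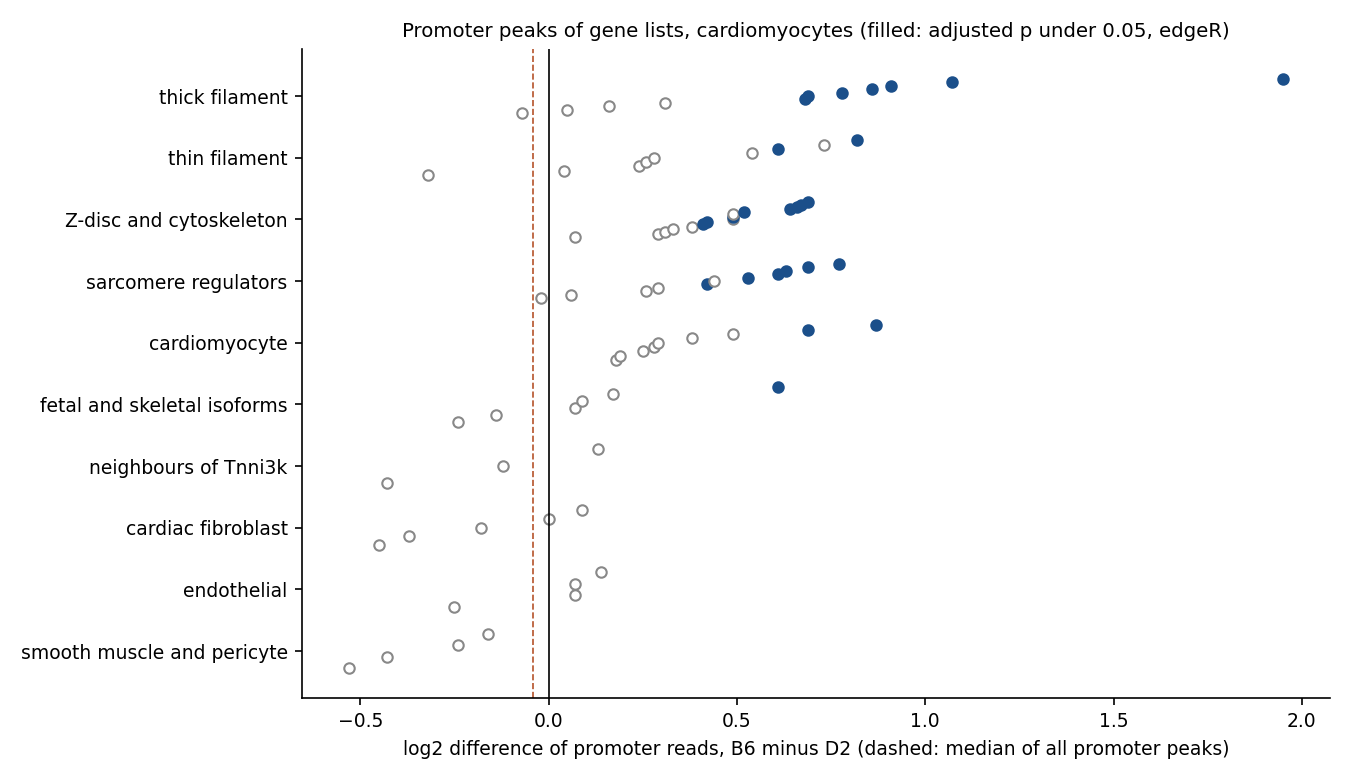
Log2 difference between B6 and D2 at cardiomyocyte promoter peaks of each gene list, 1 point per peak, filled where the adjusted p was under 0.05. The dashed line marks the median of all promoter peaks, -0.04. Points of the thick filament and Z-disc lists lie mostly above 0, with medians of 0.69 and 0.49, while the fetal and skeletal list, with a median of 0.08, lies on both sides of it.

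The promoter peaks outside the heart were narrow, apart from that of Tnni3, which stood at the 70.5th percentile of width in stem cells and the 88.2th in germ cells. Those of Ttn and Tnnt2 in these 2 cell types stood between the 1.0th and the 15.1th. In hepatocytes the Ttn peak (chr2:76979546-76980707) was 1161 bases wide and the Actc1 peak (chr2:114052068-114053196) 1128 bases, the 4.4th and 4.0th percentile of hepatocyte promoter peaks. The Ttn peak held a mean of 10.6 ± 1.36 CPM in B6, 8.33 ± 0.666 in D2, 8.42 ± 1.19 in BXD75 and 9.38 ± 0.223 in BXD87 (SD, n = 3 each). The libraries of B6 and D2 did not overlap, but the difference of 0.35 did not pass (SE 0.14, adjusted p = 0.13, edgeR), where 9.22% of hepatocyte promoter peaks were called. Actc1 held 5.71 ± 0.623 CPM in B6, 5.43 ± 0.873 in D2, 8.23 ± 2.44 in BXD75 and 7.99 ± 0.212 in BXD87, and the founders overlapped (0.07, SE 0.21, adjusted p = 0.926).

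The 2 ends of the Ttn promoter differed between cell types. GENCODE lists 5 Ttn transcripts with 3 starts here, and the one at 76980182 is also the first base of the start codon, which lies in exon 2 of the 4 others. The hepatocyte and stem cell peaks covered this position and not the first exons, whose outer start lies 2365 bases away. The cardiomyocyte peak covered both, and germ cells had a separate peak at each (chr2:76979702-76980919 and chr2:76981792-76983304).

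In stem cells the Tnni3 peak (chr7:4520249-4524881; 4632 bases) held 16.9 ± 2.34 CPM in B6, 16.6 ± 6.5 in D2 (SD, n = 3 lines each), 17.7 ± 1.25 in BXD75 and 18.7 ± 1.26 in BXD87 (SD, n = 5 lines each). Ttn (chr2:76979652-76980691) held 3.84 to 4.19 CPM and Tnnt2 (chr1:135834862-135835655, whose edge lies 699 bases upstream of the start) 1.84 to 2.1 CPM as strain means. The founder differences of these 3 peaks were between -0.04 and 0.03 with standard errors of 0.18 to 0.26, and none was called, against 17.3% of stem cell promoter peaks. In germ cells Tnni3 (chr7:4520159-4524534) held 29.6 ± 9.05 CPM in B6, 25.4 ± 1.67 in D2 (SD, n = 3 each) and 26.7 ± 3.1 in F1 (SD, n = 4), and the difference of 0.23 did not pass (SE 0.19, adjusted p = 0.469). Without the lowest of the 3 B6 libraries (19.2 CPM) it was 0.45 and passed (adjusted p = 0.0428). The germ cell Ttn peaks held 7.59 ± 0.338 and 9.51 ± 1.6 CPM at the start codon and 5.57 ± 0.6 and 6.41 ± 1.68 at the first exons, in B6 and D2, and neither was called, against 7.50% of germ cell promoter peaks.

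Peaks inside the genes showed founder differences of another pattern. In stem cells a Tnni3k peak (chr3:155038203-155040541), 14866 bases downstream of the first start, overlapped the span of the strongest cardiomyocyte Tnni3k peak. It held 9.84, 12 and 15 CPM in the B6 lines and 5.58, 6.5 and 7.91 in the D2 lines, without overlap (0.92 on the log2 scale, SE 0.18, adjusted p = 0.000389, edgeR). The BXD75 lines held 7.01 to 9.59 CPM and the BXD87 lines 7.36 to 9.63, between the founders with some overlap. In germ cells a Tnni3k peak 66350 bases into the gene (chr3:154987817-154989057, no exon) held 4.21, 6.65 and 8.09 CPM in B6, 1.74, 2.03 and 3.02 in D2 and 3.09 to 4.55 in F1 (1.4 on the log2 scale, SE 0.29, adjusted p = 0.00188). The hybrid lay between its parents, overlapping B6. A further peak at 163216 bases (chr3:154891376-154892191) held 1.13, 1.60 and 3.65 CPM in B6, 0.037 to 0.347 in D2 and 0.372 to 0.935 in F1 (adjusted p = 0.000552), and at so few D2 reads no fold is given. Both germ cell peaks were found on the reference genome alone. They may be listed because they were high in B6, so their direction is no separate result. The other germ cell peaks inside Tnni3k, found on both genomes, differed by -0.24, 0.01 and -0.22 on the log2 scale and were not called.

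Myh7, with no listed promoter peak, had 1 germ cell peak inside the gene (chr14:54978662-54980023), with 3.39, 3.57 and 4.03 CPM in B6, 1.61, 1.74 and 1.92 in D2 and 2.2 to 2.92 in F1 (1.07 on the log2 scale, SE 0.27, adjusted p = 0.00911, edgeR). This peak too was found on the reference genome alone. Of 11 germ cell peaks within Ttn outside its promoter 6 were called, with B6 higher at 3 of these and lower at 3. Of the called Ttn peaks, those found on the reference genome alone were higher in B6, and that found on the second genome alone was lower. In stem cells 2 of 7 were called, both higher in B6. Over all the genes 9 of 21 such germ cell peaks were called and 3 of 13 in stem cells, beside 17.3% and 30.6% of all peaks of these cell types. The Ttn count in germ cells was 9 and 3 when 1 or another of the B6 libraries was left out, and in stem cells it was 0 or 1 without B6 line 139 or 49 or D2 line 173 or 203.

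Only Ttn and Tnni3 had promoter peaks in cardiomyocytes and in a second cell type, so that their promoter reads could be compared in 1 fit, over genes with a promoter peak in both. Ttn was higher in cardiomyocytes than in hepatocytes by 2.25 on the log2 scale as a mean of the 4 within-strain differences (SE 0.09, adjusted p = 8.17e-17, edgeR), with 21.2 ± 2.61 to 68 ± 2.37 CPM as strain means against 6.94 ± 0.542 to 9.63 ± 0.259 (SD, n = 3 each). Of all genes tested 38.7% were higher in cardiomyocytes. The peaks differ in width, and per kb of peak the order turned: the difference was -0.40 on the log2 scale (limma, adjusted p = 0.000235), with more reads in all and fewer per kb in cardiomyocytes. Against stem cells Ttn was higher by 2.87 (SE 0.10, adjusted p = 5.82e-20) and Tnni3 by 2.10 (SE 0.08, adjusted p = 3.97e-19), where 44.3% of genes were higher. Per kb of peak these differences shrank to 0.44 for Ttn (limma, adjusted p = 0.000428) and 1.33 for Tnni3 (7.12e-14). The cardiomyocyte Tnni3 peak also lay at Tnnt1, while the stem and germ cell Tnni3 peaks did not. Its reads cannot be assigned to one gene, which limits the Tnni3 comparisons with both cell types, per kb as well.

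Against germ cells, with B6 and D2 alone and with kit and lot confounded with cell type, Ttn was higher by 1.09 (SE 0.16, adjusted p = 3.93e-06) and Tnni3 by 1.75 (SE 0.08, adjusted p = 1.19e-13), where 41.8% of genes were higher. Per kb of peak the difference was 0.40 for Ttn (limma, adjusted p = 0.0289) and 1.28 for Tnni3 (9.76e-10). In D2 the cardiomyocyte Ttn peak held 3.87 CPM per kb and the germ cell peaks 7.81 at the start codon and 4.24 at the first exons, so the order turned there, on levels scaled within each cell type. Every cardiomyocyte library exceeded every library of the second cell type for Tnni3 in both comparisons and for Ttn against hepatocytes, stem cells and B6 or D2 germ cells, where the closest values were 19.4 CPM in a D2 cardiomyocyte library and 19.1 in a germ cell library. The share of all genes whose libraries separate in this way was not computed, so whether the separation is particular to these genes cannot be told. The founder difference of Ttn was larger in cardiomyocytes than in hepatocytes by 0.75 on the log2 scale (SE 0.26), which did not pass (adjusted p = 0.0919, edgeR interaction term; 7.09% of genes were called), although without B6 cardiomyocyte replicate 2 it did (0.91, adjusted p = 0.019).

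**Figure D5:**
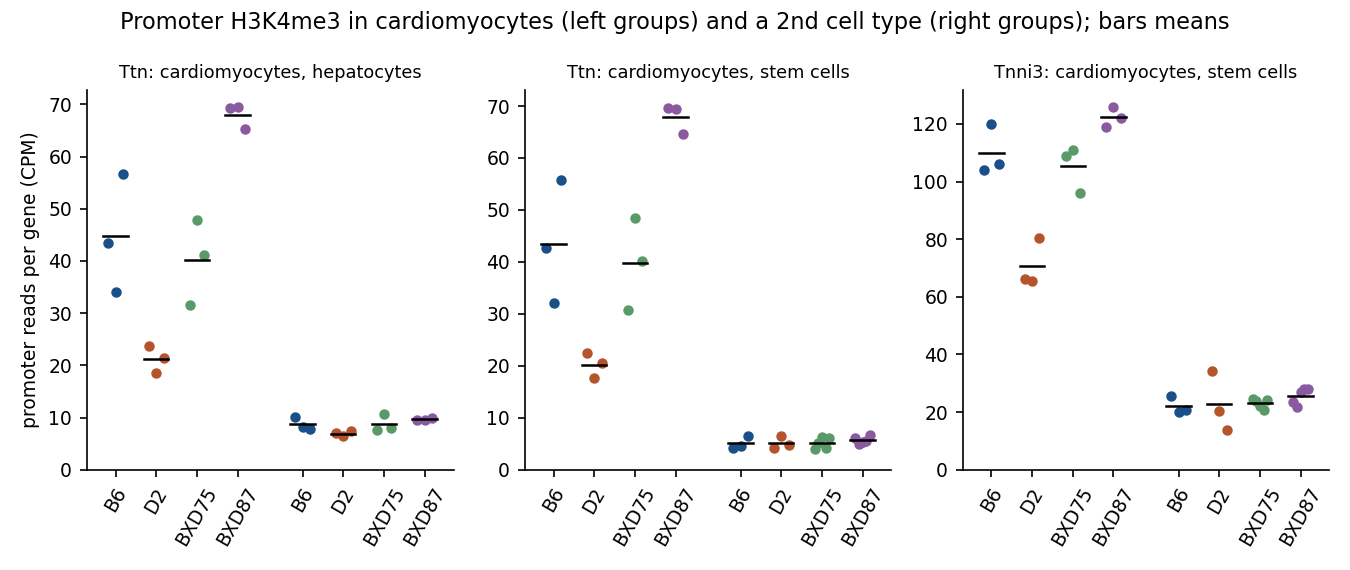
Promoter reads per gene (CPM) in each library or stem cell line, by strain, for Ttn in cardiomyocytes and hepatocytes, Ttn in cardiomyocytes and stem cells, and Tnni3 in cardiomyocytes and stem cells. In each panel cardiomyocyte groups are on the left, bars are means, and the vertical axes start at 0. Cardiomyocyte points lie above those of the second cell type in each panel.

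Across the 61 BXD strains in germ cells, the Tnni3 promoter peak ranged from 19.9 CPM (BXD69) to 57.1 CPM (BXD63), with a median of 37.3. The antibody lot moved with this level, with a median of 30.1 CPM over the 28 strains of lot 2557645 and 40.5 CPM over the 32 strains of lot 2746331, and the part of the lot in the range was not tested. Within the first lot the strains ran from 20.2 to 45.0 CPM. As scaled here, libraries of that lot ran from 21.2 to 34.4 CPM in B6, 24.1 to 26.6 in D2 and 23.3 to 29.6 in F1. The part of the spread between libraries in the range over strains was not tested. The Ttn peaks varied less, from 5.63 to 12 CPM (median 8.71) at the start codon and from 4.08 to 9.85 CPM (median 7.73) at the first exons, and the medians of the lots were 8.88 and 8.65 CPM for the former and 7.64 and 7.74 CPM for the latter.

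Over the 12 cardiomyocyte libraries, which share their depth and strain structure, the promoter peak most like that of Ttn in log2 CPM (Pearson r = 0.988, n = 12) lay at the microRNA genes Mir133a-1 and Mir1a-2. The nearest to Tnni3 was Tob1 (0.986), to Myl3 Xirp1 (0.967), to Mybpc3 Eef1a2 (0.960) and to Myl2 Gm13684 (0.923). For Tnni3k, which has no promoter peak, the peak 6218 bases into the gene was used in its place, and the nearest 5 were Sspn (0.983), Gm29065 (0.978), Fam220a (0.976), Tead1 (0.974) and Pkig (0.973). Among the genes themselves Myl3 and Tnni3 were most alike (0.916), followed by Myl2 and Myl3 (0.86), while Ttn and Mybpc3 (0.198) and Mybpc3 and the Tnni3k peak (-0.146) were not. These correlations are descriptions of 12 libraries with no test.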

How the data were processed

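Reads per H3K4me3 peak were taken as raw counts from the tables deposited by the authors, one column per library. CASAVA 1.8, BWA 0.5.10, MACS 1.4.2 and mm10 are named in the submitters' processing notes, without roles. How reads were filtered and counted, and the build of the second genome, are not given in the sources used here. Tests were run with edgeR 4.0.16 under R 4.3.3 (filterByExpr on strains, TMM, robust glmQLFit, quasi-likelihood F test). A peak was called at an adjusted p (Benjamini-Hochberg, over all peaks of the cell type) under 0.05. DESeq2 1.42.0 was an alternative, and limma 3.58.1 was used for reads per kb. CPM values use TMM-scaled totals. Stem cell libraries of 1 line were summed. Cell types were compared on promoter reads summed per gene, over genes with a promoter peak in both. Bases of peaks and promoters were read on GRCm38.p6. On simulated counts with known changes, the cardiomyocyte founder contrast recovered 14 of 100 changes of 1.5-fold and 68 of 100 of 2-fold.

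Replicate number was not a block. Input libraries have 0 columns in the tables and were not used. All 10 genes are named, with at most 4 called genes per list by size of difference, genes named as not called having been picked afterwards. The genes and lists were chosen with earlier results of these data known, and founder differences of this kind had been seen in them.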

Additional observations from a re-analysis of the deposited data

Results flagged for a closer look

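The Ttn peak at the first exons in germ cells held 5.26 CPM in F1 replicate 2, while the other 3 F1 libraries held 7.5 to 7.74 CPM, a gap wide enough to pass Dixon's test at 95%. It was the only such library among 9 groups of these genes tested, and chance marks about 1 group in 20. F1 libraries share in the estimate of spread in germ cells but in no difference between founders.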

How the results depend on the processing

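The founder difference at the cardiomyocyte promoters stood on 4 called peaks of 5 with DESeq2, with its size factors in edgeR, without a filter, with at least 50 reads per library of 1 strain, with a replicate block, with thinned libraries and with B6 and D2 alone. With peaks found on both genomes, which leaves out Ttn and Myl2, it stood on 2 of 3. Of 100 simulated 1.5-fold changes at randomly drawn peaks 14 were recovered, so many changes of that size may go uncalled. The rate need not hold for the 5 promoter peaks, of which Tnni3 was called at 1.53-fold. Intervals and calls cover the spread between libraries, and no block could be fitted in stem cells, whose replicates are lines, or in germ cells, whose B6 columns carry no number of the labels.

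Over all cardiomyocyte peaks, 1551 were called between the founders against 2554 with DESeq2, 831 with the replicate block, 3347 with B6 and D2 alone and 502 to 3841 without single libraries. Between the BXD lines the count of 126 became 461 with DESeq2, 72 with the replicate block, 52 with thinned libraries, 7 with peaks found on both genomes, 27 with the 2 lines alone and 47 to 504 without single libraries. The any-strain count of 5383 became 3112 with the replicate block, 3041 with peaks found on both genomes and 1280 to 8998 without single libraries. The germ cell count of 11631 became 5028 with at least 50 reads and 7639 to 16222 without single libraries. With peaks matched at 50% overlap, where fewer pairs are tested, the counts were 6522 against hepatocytes (11941), 9023 against stem cells (13778), 7987 against germ cells (12777) and 567 for the founder difference (980, with 673 to 1579 without single libraries). Correlations between same-numbered libraries ran from -0.734 to 0.65 over 18 pairs in cardiomyocytes, where 8 pairs passed a low positive threshold. In hepatocytes they ran from -0.265 to 0.605 over 18 pairs, where 5 passed it. Such counts cannot tell whether libraries of the same number were prepared together. The replicate block changed no call at the 5 promoters. It gave 4 called regulator peaks in place of 6 between the founders, 0 thick and 0 thin filament peaks in place of 1 each between the lines, and an adjusted p of 0.0666 in the any-strain test at the Tnni3k peak 174884 bases into the gene. With all GENCODE transcripts 5 of the genes had a promoter peak in stem cells and 4 in germ cells. The cause of these shifts was not tested.

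Directions that turned without single libraries were all of uncalled differences: the Ttn peak 244900 bases into the gene (-0.35 to 0.10), the Tnni3k peak at 148802 bases between the lines (-0.31 to 0.05), Actc1 in hepatocytes (-0.01 to 0.22), Tnnt2 (-0.28 to 0.13), Ttn (-0.19 to 0.22) and Tnni3 (-0.18 to 0.35) in stem cells, and Ttn at the first exons in germ cells (-0.34 to 0.03). Ttn against hepatocytes turned to -0.40 per kb of peak.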
